A study of Mus musculus with 6 samples.

Results

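The gamma-B protocadherins are the 7 mouse genes whose symbols begin with Pcdhgb, namely Pcdhgb1, Pcdhgb2, Pcdhgb4, Pcdhgb5, Pcdhgb6, Pcdhgb7 and Pcdhgb8. They were found by symbol among the 54532 gene identifiers counted in each library, and all 7 were among the 16731 genes with enough counts to be tested. RNA sequencing was performed on whole brains of C57BL/6J mice at postnatal day 14, with 3 control and 3 Mphosph8 mutant (Mphosph8∆n) animals. Controls were Mphosph8fl/+ Nestin-Cre+ per the labels, which is 1 floxed allele, and mutants were Mphosph8fl/fl Nestin-Cre+. The Cre transgene was thus present in all 6 animals. Cre can also act on the floxed allele of the controls, whose titles carry the term HET. Fold changes here therefore set homozygous against heterozygous animals, not against animals with an unaltered gene. Where the study's own text names only the transgene for its controls, the labels were followed here. Nestin-Cre acts in neural progenitors and the cells derived from them, so cells of other origin in a whole brain keep the gene, and only 1 exon of it is floxed, so that a count over the whole gene includes parts Cre leaves in place. In whole tissue, fewer cells of a type and less RNA per cell cannot be told apart.

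Clustered protocadherins are cell adhesion molecules of neurons, encoded by 3 neighbouring gene clusters named alpha, beta and gamma. Each gamma gene has its own large first exon, which encodes the extracellular cadherin repeats, the membrane span and a part of the cytoplasmic tail, and this exon is spliced to constant exons that all gamma genes share. Neurons switch on different combinations of these genes from separate promoters, and the resulting proteins bind like with like between cells, which is known to serve the recognition of self in dendrites and the survival of interneurons. MPP8, the product of Mphosph8, belongs to the HUSH complex, a repressor that acts at chromatin carrying histone H3 lysine 9 trimethylation.

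The libraries held 12956880 to 15223424 counts, with 25461 to 25743 genes detected in each. The targeted gene was examined first. Mphosph8 stood at 55.8, 48.6 and 70.7 CPM (counts scaled to a common library size) in control brains and at 33.1, 27.2 and 26.5 in mutant brains. Its level was lower in every mutant library, with a log2 fold change of -1.02 ± 0.12 (SE, n = 3 per group; edgeR, Benjamini-Hochberg adjusted p = 0.000157). Xist and Y-linked genes set control replicate 3 apart, with 27 Xist counts and 3641 Y-linked counts against at least 11130 Xist counts and at most 1 Y-linked count in the other 5 libraries. Read by these genes, control replicate 3 was male and the other 5 libraries were female. The control group was thus mixed in sex and the mutant group was not. All neuron markers examined were detected in every library, and their summed level ran from 5398 to 5659 CPM in controls and from 5370 to 5805 CPM in mutants. The summed level of 8 oligodendrocyte markers was 21576 to 25839 CPM in controls and 17129 to 19850 CPM in mutants, with all 8 estimates below 0, a median log2 fold change of -0.47 and 2 markers lower by the adjusted p alone with edgeR and limma-voom (5 with DESeq2). The markers of oligodendrocyte progenitors summed to 1026 to 1056 CPM in controls and 912 to 1013 CPM in mutants. Among these 6 markers 1 estimate was above 0 and 5 were below, with a median log2 fold change of -0.11. By the adjusted p, 0 of them passed with edgeR, DESeq2 or limma-voom. The markers of choroid plexus and ependyma summed to 1435 to 1731 CPM in controls and 1066 to 1272 CPM in mutants. This sum was made up mostly of Ttr, with means of 1498 and 1100.4 CPM (edgeR adjusted p = 0.0764). Over all 6 of these markers 3 estimates were above 0 and 3 below, with a median log2 fold change of -0.07. By the adjusted p alone, 1 of the 6 was lower with DESeq2 and 1 with limma-voom, against 0 with edgeR. No marker of these lists was at 0 in any library. The part of these differences in the protocadherin results was not tested.

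The gamma-B genes lie on the + strand of chromosome 18 (GRCm38), interleaved with the gamma-A genes and upstream of the 3 gamma-C genes. The first of them, Pcdhgb1, starts at position 37680233 and is followed by Pcdhgb2 at 37689828, Pcdhgb4 at 37720369, Pcdhgb5 at 37731009, Pcdhgb6 at 37742094, Pcdhgb7 at 37751600 and Pcdhgb8 at 37761801. All 7 run to a shared 3′ end between 37841870 and 37841873. Each has an annotated transcript of 4 exons, and the gene-specific first exon spans 2499 bases in Pcdhgb8, the shortest, and 2607 bases in Pcdhgb1, the longest. Pcdhgb8 is annotated as a polymorphic pseudogene, and the other 6 are annotated as protein-coding. Across the 21 gamma-B pairs, the first exons were 66.5% to 78.5% identical, with a median of 68.7% and the highest value for Pcdhgb4 with Pcdhgb5. The 84 pairs of a gamma-A with a gamma-B gene ranged from 50.8% to 58.0%, with a median of 56.2%, so the gamma-B first exons resembled one another more than they resembled their interleaved neighbours.

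This arrangement sets which reads can be credited to a member. Reads in the constant exons fall in all gamma genes, and genes lying wholly within exons of others on their strand were almost never counted in these files. A member's count was therefore read as coming from the exonic bases that belong to it alone, between 2499 bases in Pcdhgb8 and 4614 in Pcdhgb5. Some of these bases also resemble other genes over a read length of 50 bases. The share of such 50-base words found in another gene was highest for Pcdhgb1, at 16.8%, and Pcdhgb2, at 16.4%, which have 412 words in common, and it was 11.9% for Pcdhgb6. It was 9.18% for Pcdhgb8, 7.45% for Pcdhgb4, 6.37% for Pcdhgb5 and 2.67% for Pcdhgb7. Reads from such stretches cannot be assigned to 1 gene with certainty, and values for Pcdhgb1 and Pcdhgb2 are therefore less certain than those for Pcdhgb7. An annotated transcript of Pcdhgb1 also shares exonic bases with Pcdhga4. In Pcdhgb7, 771 of its own bases lie opposite exons of Gm26672, an annotated gene on the other strand. Unlike genes within same-strand exons, genes lying wholly opposite others were counted in these files. At least 10 counts were found for 27.5% of them, against 33.5% of genes without overlap.

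To see how the gamma-B genes differ between control and Mphosph8 mutant brains, each gene's counts were compared over the 3 animals per group. Pcdhgb2, Pcdhgb4 and Pcdhgb8 were higher in mutant brains by more than 2-fold, Pcdhgb5 was higher by less than that, and Pcdhgb1, Pcdhgb6 and Pcdhgb7 did not pass the test. A gene was called when its Benjamini-Hochberg adjusted p from edgeR's quasi-likelihood test was under 0.05 and its fold change over 2. By this rule 3 of the 7 members were called higher, where 0.353% of all genes tested were, and 0 were called lower, where 0.00598% were (0.359% in both directions together). With the adjusted p alone, 4 of 7 were higher, against 0.532% of all genes, and 0 were lower, against 0.0956%, and DESeq2 and limma-voom gave the same counts. At an unadjusted p under 0.05, 4 members were higher and 0 lower with edgeR, against 4.09% and 2.41% of all genes. For the same 4 genes every mutant library lay above every control library, which held for 6.23% of all genes, and 0 members lay wholly below, against 5.42%. The median log2 fold change over the 7 members was 0.89, ranging from -0.19 to 1.72, beside a median of -0.01 over all genes tested.

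Pcdhgb8, the polymorphic pseudogene next to the 3′-most gamma-A gene, had the largest fold change and the fewest reads in controls. It stood at 1.596, 2.27 and 2.16 CPM in control brains and at 7.996, 4.78 and 7.05 CPM in mutant brains. The lowest mutant library was thus above the highest control library by more than the spread among the controls. These levels rest on 24 to 32 counts per control library and 64 to 100 per mutant library. The means were 2.01 ± 0.362 and 6.61 ± 1.65 CPM (SD, n = 3 each), giving a log2 fold change of 1.72 ± 0.23 (SE; 95% interval 1.23 to 2.20) with an edgeR adjusted p of 0.000427.

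Pcdhgb4, in the middle of the array, gave the largest gain in CPM among the 7 and held the most mutant counts of any member. Its level was 5.72, 6.66 and 7.09 CPM in controls and 17.8, 15.8 and 20.4 CPM in mutants. The lowest mutant library was more than 2 times the highest control library. The mean rose from 6.49 ± 0.701 to 18.03 ± 2.31 CPM (SD, n = 3 each), a log2 fold change of 1.47 ± 0.14 (SE; 95% interval 1.18 to 1.77; edgeR adjusted p = 5.52e-06).

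Pcdhgb2, which shares the most 50-base words with Pcdhgb1, stood at 4.19, 5.35 and 5.33 CPM in controls and at 14.95, 11.5 and 10.9 CPM in mutants. Again the groups did not overlap, and mutant replicate 1 was the highest. The means were 4.96 ± 0.664 and 12.5 ± 2.19 CPM (SD, n = 3 each), with a log2 fold change of 1.33 ± 0.16 (SE; 95% interval 0.98 to 1.67; edgeR adjusted p = 0.000157).

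Pcdhgb5, the member whose first exon is closest to that of Pcdhgb4, was higher in mutants but stayed short of a 2-fold change. Control brains had 5.19, 6.30 and 6.28 CPM and mutant brains 12.9, 10.2 and 10.03 CPM. The groups did not overlap, and mutant replicate 1 was again the highest library. The mean went from 5.92 ± 0.636 to 11.0 ± 1.61 CPM (SD, n = 3 each), and the log2 fold change was 0.89 ± 0.15 (SE; 95% interval 0.57 to 1.22; edgeR adjusted p = 0.00604). The upper bound of this interval reaches beyond a 2-fold change.

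The other 3 members had overlapping groups. Pcdhgb7, which encodes an isoform from the 3′ part of the array, stood at 5.19, 7.98 and 6.34 CPM in controls and at 9.28, 6.57 and 8.07 CPM in mutants. Its log2 fold change was 0.30 ± 0.18 (SE; 95% interval -0.08 to 0.67; edgeR adjusted p = 0.882), and only mutant replicates 1 and 3 were above all controls.

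Pcdhgb1, the 5′-most member, stood at 4.79, 4.61 and 5.94 CPM in controls and at 6.16, 3.81 and 3.85 CPM in mutants. Mutant replicate 1 was above all controls and the other mutant libraries were below them. The log2 fold change was -0.16 ± 0.21 (SE; 95% interval -0.60 to 0.28; edgeR adjusted p = 0.962). This interval ends below that of Pcdhgb2, with which Pcdhgb1 shares sequence, and the difference between the genes was not tested.

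Pcdhgb6, the member with the most reads in controls, stood at 11.8, 12.7 and 11.2 CPM in controls and at 12.95, 8.58 and 9.89 CPM in mutants. Mutant replicate 1 was above all controls with the rest of the mutant libraries below them, the same arrangement as for Pcdhgb1. The log2 fold change was -0.19 ± 0.15 (SE; 95% interval -0.50 to 0.12; edgeR adjusted p = 0.921). Changes of Pcdhgb1, Pcdhgb6 and Pcdhgb7 that lie within their intervals remain possible with 3 libraries per group at this depth.

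**Figure D1:**
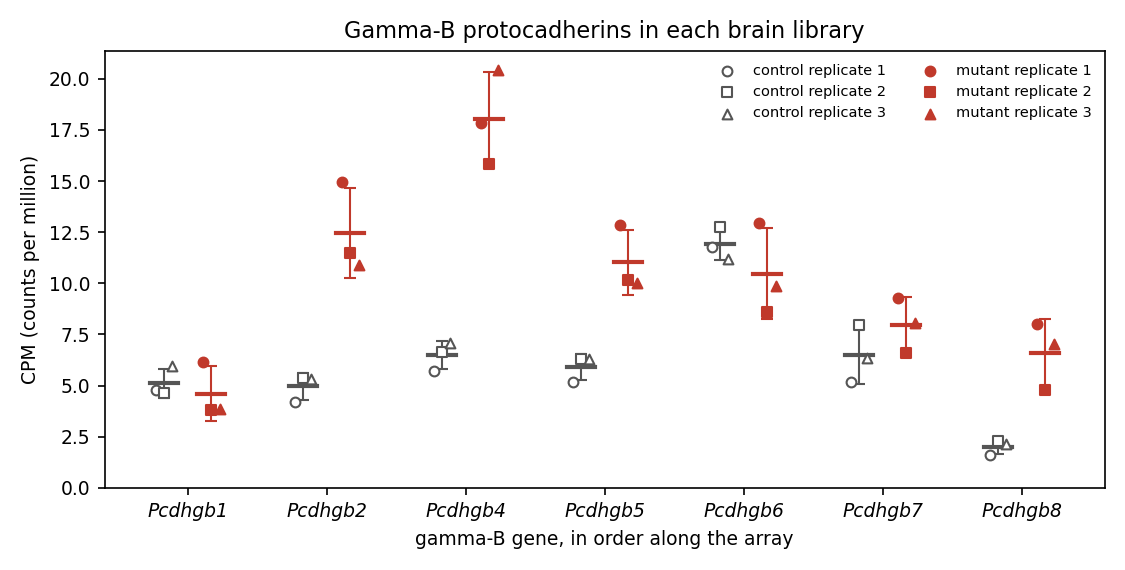
Level of each gamma-B gene in CPM in the 3 control and 3 mutant libraries (symbols, 1 per library; bars are the group mean and whiskers 1 SD). Mutant points sit above all control points for Pcdhgb2, Pcdhgb4, Pcdhgb5 and Pcdhgb8, and the groups overlap for Pcdhgb1, Pcdhgb6 and Pcdhgb7.

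Summed over the 7 genes, the gamma-B level was 38.4, 45.9 and 44.3 CPM in controls and 82.0, 61.2 and 70.2 CPM in mutants. The mutant libraries were all above the controls, and the ratio of the group means, 71.2 ± 10.4 to 42.9 ± 3.95 CPM (SD, n = 3 each), was 1.66. The sum rested on 578 to 657 counts per control library and 820 to 1026 per mutant library. Gamma-B reads were 11.4% ± 0.518 of all gamma reads in controls and 14.2% ± 0.396 in mutants (SD, n = 3 each), without overlap. The gamma-A sum rose from 117 to 271 CPM, a ratio of 2.31, and the gamma-C sum went from 216 to 161 CPM, a ratio of 0.744. The ratio of gamma-B to gamma-A was 0.367 ± 0.0154 in controls and 0.263 ± 0.0108 in mutants (SD, n = 3 each), and every mutant library was below every control library. These sums are descriptions and carry no test.

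The make-up of the gamma-B reads differed between the groups. Pcdhgb6 contributed 25.3% to 30.6% of them in control libraries and 14.0% to 15.8% in mutant libraries. Pcdhgb4 contributed 14.5% to 16.0% in controls and 21.7% to 29.1% in mutants, which made it the member with the most reads in each mutant library. On average the share of Pcdhgb2 was 11.5% in controls and 17.5% in mutants, and that of Pcdhgb8 was 4.66% and 9.20%. Pcdhgb1 went from 11.97% to 6.40% and Pcdhgb7 from 15.1% to 11.2% of the reads, both without overlap of the groups. Pcdhgb5 moved least, from 13.8% to 15.5%, also without overlap. A member's share falls when the others gain reads, so a lower share of Pcdhgb1, Pcdhgb6 or Pcdhgb7 does not stand for a lower level.

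**Figure D2:**
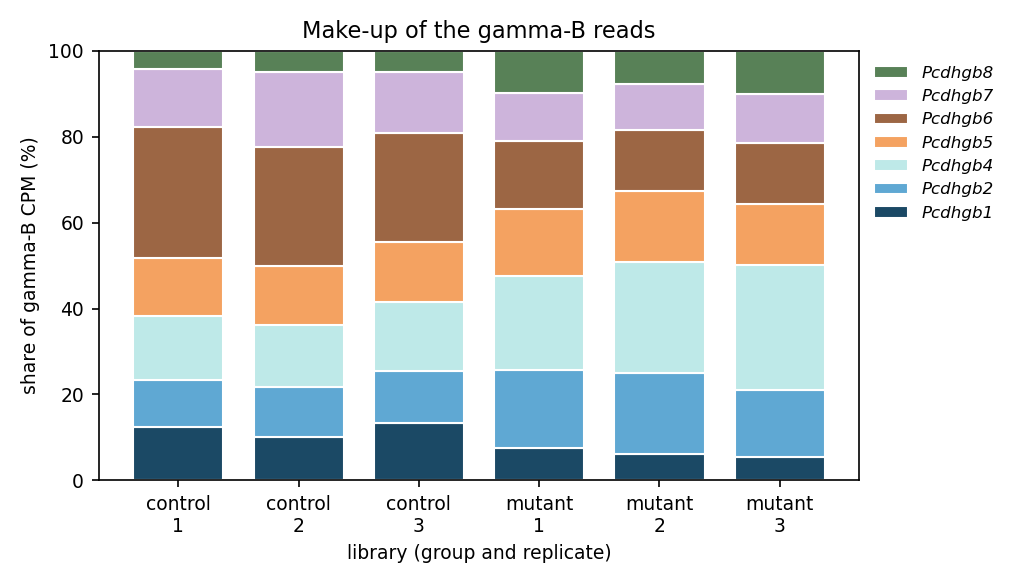
Share of each gamma-B gene in the gamma-B reads of each library, in percent, as stacked bars for the 3 control and 3 mutant libraries. The share of Pcdhgb6 lies between 25.3% and 30.6% in controls and between 14.0% and 15.8% in mutants, while that of Pcdhgb4 reaches 29.1% in a mutant library.

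To compare members with each other, levels were divided by the exonic bases that belong to each gene alone, its own bases. Values are given as CPM per kb of own bases. Own bases reach beyond the first exon in some members, most in Pcdhgb5 (4614 against 2551 bases) and Pcdhgb4 (3588 against 2549 bases). Per kb of first exon these members would stand higher, so the order below holds for own bases only. Words shared with other genes were not taken off these lengths. In control brains the order was Pcdhgb6 at 4.64 ± 0.304, Pcdhgb7 at 2.51 ± 0.542, Pcdhgb1 at 1.95 ± 0.275, Pcdhgb4 at 1.81 ± 0.195, Pcdhgb2 at 1.79 ± 0.240, Pcdhgb5 at 1.28 ± 0.138 and Pcdhgb8 at 0.804 ± 0.145 CPM per kb (SD, n = 3). On own bases, Pcdhgb6 stood clear of Pcdhgb7, Pcdhgb2 of Pcdhgb5 and Pcdhgb5 of Pcdhgb8, and the other neighbours in this order overlapped between libraries. In mutant brains Pcdhgb4 was highest at 5.02 ± 0.643, followed by Pcdhgb2 at 4.51 ± 0.791, Pcdhgb6 at 4.08 ± 0.874, Pcdhgb7 at 3.07 ± 0.523, Pcdhgb8 at 2.64 ± 0.662, Pcdhgb5 at 2.39 ± 0.348 and Pcdhgb1 at 1.76 ± 0.512 CPM per kb (SD, n = 3). There each neighbour in the order overlapped the next. The highest member was 5.05 to 7.19 times the lowest within a control library and 2.305 to 3.87 times the lowest within a mutant library. These spreads hold for own bases, and they were not computed per kb of first exon.

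**Figure D3:**
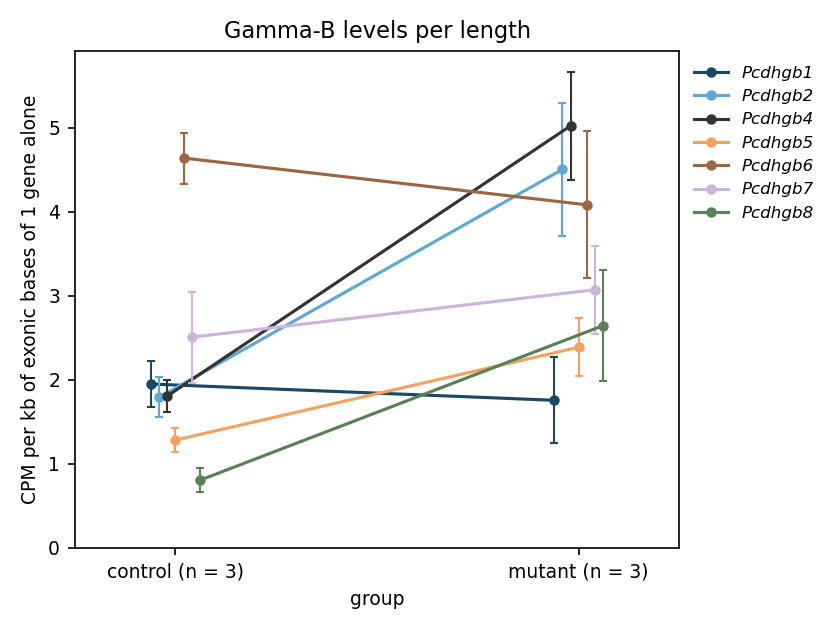
Level per length of each gamma-B gene, in CPM per kb of exonic bases that belong to 1 gene alone, as group means (points joined by a line per gene) with 1 SD over 3 libraries. Pcdhgb6 is the highest member in controls at 4.64 and Pcdhgb4 in mutants at 5.02, and Pcdhgb8 goes from 0.804 to 2.64.

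Among the 7 members, those with a lower control level per kb of own bases tended to have the larger fold change. Spearman's rho was -0.82 and Pearson's r was -0.72 over 7 genes. Both values hold for own bases only. They were not computed per kb of first exon, where Pcdhgb4 and Pcdhgb5 would stand higher in controls. Control level and fold change contain the same control values, so the relation is partly built in. Over the 19 gamma-A and gamma-B genes together Spearman's rho was -0.21. The order along the array had a rho of 0.21 with the fold change over the 7 genes, and the GC content of the first exon, between 52.1% in Pcdhgb8 and 54.0% in Pcdhgb6, had a rho of -0.71. These genes share their libraries and overlap in sequence, so the values are descriptions only.

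The gamma-A genes lie between the gamma-B genes and share their constant exons, which makes them the nearest comparison. They encode isoforms of the same kind, and 8 of the 12 were called higher and 0 lower, with a median log2 fold change of 1.34 and all 12 estimates above 0. The difference between the subfamilies was not tested. Along the array, Pcdhgb1 at -0.16 stood between Pcdhga3 at 1.64 and Pcdhga4 at 0.80 on the log2 scale. Pcdhgb2 at 1.33 stood between Pcdhga4 and Pcdhga5, whose log2 fold change of 0.32 had overlapping groups. Pcdhgb4 at 1.47 lay between Pcdhga7 at 1.495 and Pcdhga8 at 1.27, 3 neighbours with nearly the same estimate. Pcdhgb5 at 0.89 lay between Pcdhga8 and Pcdhga9 at 0.57, and Pcdhgb6 at -0.19 between Pcdhga9 and Pcdhga10 at 1.15. Further on, Pcdhgb7 at 0.30 was followed by Pcdhga11 at 0.24, the smallest gamma-A estimate. Pcdhgb8 at 1.72 and Pcdhga12 at 1.53, the next gene, both ended the run of gamma-A and gamma-B genes with large values. The called members were thus not next to each other among the gamma-B genes, except Pcdhgb2 and Pcdhgb4. Of the gamma-C genes, which are regulated apart from the others, Pcdhgc4 had the lowest log2 fold change, -0.80 (edgeR adjusted p = 0.00723), and Pcdhgc5 the highest, -0.23 (edgeR adjusted p = 0.893). Pcdhgc3, the gamma-C gene after Pcdhga12, was at -0.42 (edgeR adjusted p = 0.0437), and neither it nor Pcdhgc4 reached a 2-fold change.

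**Figure D4:**
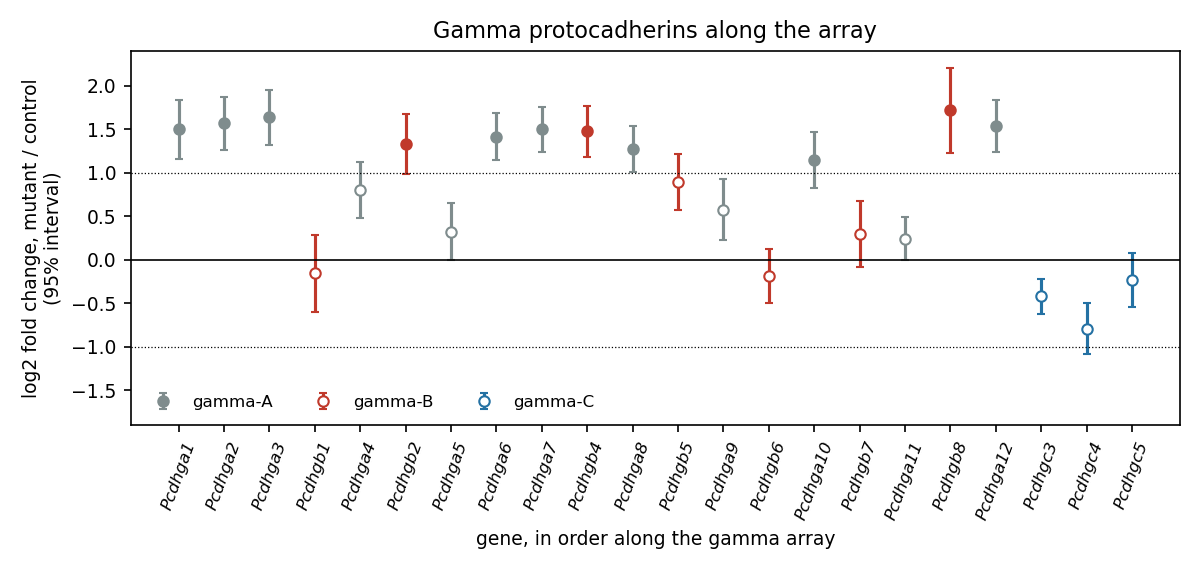
log2 fold change, mutant against control, of the 22 gamma protocadherin genes in their order along the array, with 95% intervals from edgeR. Filled circles are genes called (adjusted p under 0.05 and over 2-fold), open circles are not called, dotted lines mark a 2-fold change, and colour gives the subfamily; gamma-B estimates run from -0.19 for Pcdhgb6 to 1.72 for Pcdhgb8.

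Within each group the members moved with the library. Control replicate 1 was below its group mean for 7 of 7 members, and mutant replicate 2 likewise, while mutant replicate 1 was above its group mean for 6 of 7. The gamma-A genes moved the same way. Their mean log2 deviations were -0.17, -0.13 and 0.23 in these libraries, beside -0.18, -0.22 and 0.26 for gamma-B. Over the 6 libraries, the correlation of log2 CPM between members had a median r of 0.63 over 21 pairs, with 13 pairs above 0. With the group means removed, the median r was 0.72 and all 21 pairs were above 0, the lowest at 0.17. Pcdhgb2 and Pcdhgb5 had the highest r over the 6 libraries, at 0.998. The pairs share their libraries and depth, so these are descriptions.

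The genes whose log2 CPM followed the mean of the gamma-B genes most closely over the 6 libraries were Kif5c (r = 0.996), a kinesin motor heavy chain of neurons, Pcdhga10 (0.993), Zfp24 (0.989), a zinc finger gene, Unc13c (0.988), a presynaptic vesicle-priming gene, and Gm42769 (0.985). In all, 65 of 16724 genes had an r above 0.95, and the genotype difference is part of these values. With the group means removed, the closest were Sorcs2 (0.998), a sortilin-family receptor, Lamc1 (0.998), a laminin subunit, Arsa (0.997), Adgrl3 (0.996) and Pcdhgc5 (0.994), and 183 genes exceeded 0.95. With 6 libraries, values this high are reached by many genes.

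Other genes of the pathway, known to act with the gamma protocadherins or to regulate the clusters, were read from the same fit. Of 10 partners of the gamma proteins, among them the kinase genes Ptk2 and Ptk2b and the protease gene Adam10, 0 passed the adjusted p with edgeR, DESeq2 or limma-voom, and 0 had an unadjusted edgeR p under 0.05. Over all genes that share was 6.51%, so a count of 0 among so few genes is near the background. The smallest p-values belonged to Nlgn1, a synaptic adhesion gene, with a log2 fold change of 0.15 (edgeR adjusted p = 0.897), and Pdcd10 with -0.17 (edgeR adjusted p = 0.925). Of 15 regulators of the clusters, among them Ctcf, cohesin genes and Smchd1, 0 passed by the same 3 tools and 0 had an unadjusted edgeR p under 0.05, again near the background of 6.51%, with the smallest p for Wiz, a zinc finger gene, at a log2 fold change of 0.15 (edgeR adjusted p = 0.844). Among 6 genes of the HUSH complex and its associates, Mphosph8 was called lower, and 2 were higher by the adjusted p alone. Fam208a, which encodes the HUSH subunit TASOR, had a log2 fold change of 0.77 ± 0.12 (SE; edgeR adjusted p = 0.00141), and Morc2a, an ATPase that acts with HUSH, of 0.45 ± 0.09 (SE; edgeR adjusted p = 0.0208).

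The calls for the gamma-B genes were recomputed under other normalisations, filters and tools and with each library left out. The log2 fold change stayed between 1.18 and 1.41 for Pcdhgb2, between 1.37 and 1.56 for Pcdhgb4 and between 1.56 and 1.90 for Pcdhgb8, and each was called in all 12 fits. Pcdhgb5 stayed between 0.77 and 0.96, with an edgeR adjusted p of at most 0.0458, reached without control replicate 1. The ranges were -0.42 to -0.03 for Pcdhgb1, -0.36 to -0.06 for Pcdhgb6 and 0.15 to 0.46 for Pcdhgb7, and none was called in any of the 12. Without control replicate 3, the library that sex-linked genes set apart, the log2 fold changes were 1.39 for Pcdhgb2, 1.55 for Pcdhgb4, 1.78 for Pcdhgb8 and 0.94 for Pcdhgb5, all with an edgeR adjusted p under 0.05. In that fit Pcdhgb1 was at -0.03, Pcdhgb6 at -0.23 and Pcdhgb7 at 0.28.

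**Figure D5:**
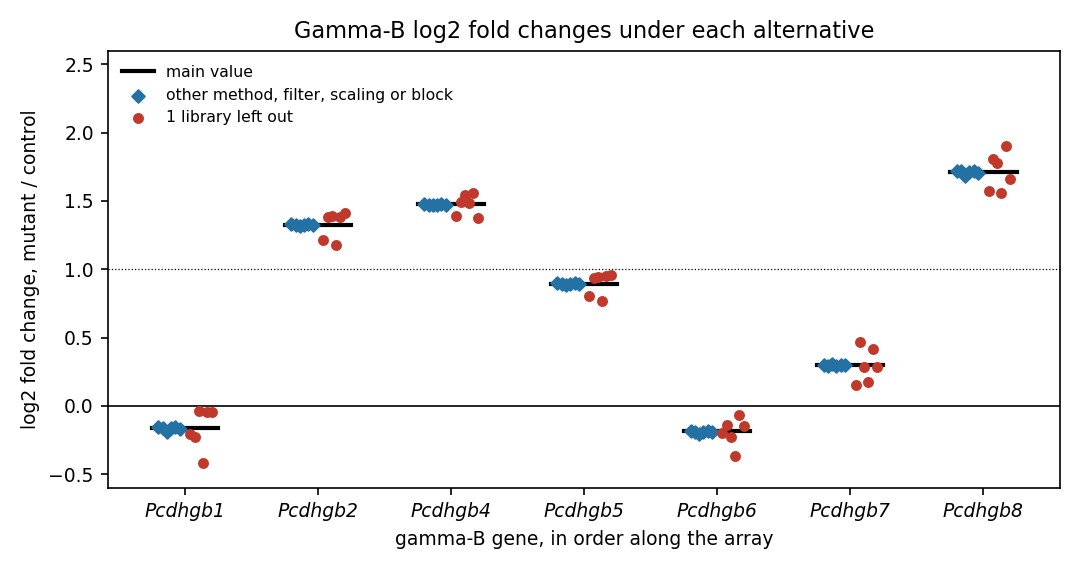
log2 fold change of each gamma-B gene under the main fit and 12 alternative fits (other normalisation, tool, filter, replicate block or each library left out). Black bars are the main values, diamonds the other methods, circles the fits without 1 library, and the dotted line a 2-fold change. The estimates of Pcdhgb2, Pcdhgb4 and Pcdhgb8 lie above 1 in every fit, and those of Pcdhgb5 stay between 0.77 and 0.96.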

How the data were processed

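The values deposited by the authors are raw counts per Ensembl gene, with no normalisation, made with featureCounts (Subread 1.6.2) from STAR alignments to GRCm38. The libraries were enriched for polyA RNA and read from 1 end over 50 bases. Before alignment the authors used Trim Galore 0.5.0 for trimming and Bowtie2 2.3.4.1 to filter out abundant sequence such as ribosomal and mitochondrial RNA, so library totals are those after this step. For strand and for reads that several genes claim, the settings used were not given in the sources used here. Of 752 genes lying wholly within same-strand exons of others, 0.399% had at least 10 counts; of 454 lying wholly opposite others, 27.5% did; of 42753 without overlap, 33.5% did. Symbols and coordinates came from GENCODE M21, which matched 54495 identifiers. Counts were fitted with edgeR 4.0.16 (R 4.3.3; filterByExpr, TMM, genotype only), with Benjamini-Hochberg adjustment over 16731 genes. CPM used effective library sizes, and log2 CPM a prior count of 2. Standard errors came from the F statistic. First exons were aligned end to end. Results were recomputed with DESeq2 1.42.0, with limma-voom (limma 3.58.1), with RLE size factors, with other filters and thresholds, with each library left out and with a replicate block. The edgeR fit was tested on simulated counts with known changes, and the other steps were not.

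The members and lists were chosen with earlier results of these data known. Named were all members, Mphosph8, the genes beside each member, the extremes of gamma-A and gamma-C, listed partners, HUSH genes and regulators with an adjusted p under 0.05 or otherwise the 2 smallest p, and the 5 genes most like the members; 1 gene that this rule names is not reported here. Each library came from a separate mouse. The edgeR p-values rest on the spread between these animals, with each gene's variance moderated by that of all genes tested. Depth was 12956880 to 15223424 counts per library.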

Additional observations from a re-analysis of the deposited data

How the results depend on the processing

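Pcdhgb2, Pcdhgb4 and Pcdhgb8 were called higher, and 0 members lower, under all 14 alternatives, and without a fold threshold Pcdhgb5 joined them to make 4. The number of genes called, 60, became 105 without a fold threshold, 96 without a filter on low counts and 31 in a test against a 1.5-fold change, and ran from 47 to 67 with a library left out. With the replicate number as a block, 62 genes and 3 members were called. Deviations of same-numbered libraries correlated at 0.10, -0.05 and 0.08, so the numbers were not taken to pair the animals. Mphosph8 ran from -1.13 to -0.85 with a library left out, and fell short of a 2-fold change without control replicate 3 (-0.85), mutant replicate 2 (-0.98) or mutant replicate 3 (-0.96). The gamma-B median ran from 0.77 to 0.96 over the alternatives, and the summed ratio from 1.46 without Pcdhgb4 to 1.77. The spread of control levels per length was 5.77 with own bases and 5.84 with all exonic bases. Both values compare Pcdhgb6 with Pcdhgb8, which are alike in own bases (2565 and 2499) and in all exonic bases (4684 and 4615). They therefore cannot test the levels per length of Pcdhgb4 or Pcdhgb5. Depth limits Pcdhgb8 most, with 24 to 32 counts per control library, and 3 animals per group limit all members.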
